A study of Mus musculus with 6 samples.

Results

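The genes described here are 45 genes of DNA replication and nucleotide synthesis, taken as a fixed list of gene symbols. All 45 were among the 17610 genes with enough reads to be tested. The list holds the factors that load and activate the replicative helicase, the polymerases and their clamp, the enzymes that join Okazaki fragments, 5 enzymes that make deoxynucleotides, 3 chromatin factors of the fork and the E2F activators E2f1 and E2f2.

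RNA was sequenced from CD4+ T cells of C57BL/6J mice, with 3 libraries of wild-type cells (WT) and 3 of cells labelled Wtap KO. Wtap helps to hold together the nuclear enzyme that puts methyl groups on adenosines of mRNA (m6A), and the series asked what it does for T cell receptor signalling and survival. By the labels' protocols, which are worded alike for both groups, cells received 1 µM 4-hydroxytamoxifen for 24 h. They were then stimulated on plates for 40 to 48 h with 1 µg/mL anti-CD3 and 2.5 µg/mL anti-CD28 in Th1 conditions, that is with 10 ng/mL IL-12 and 10 µg/mL anti-IL-4, grown on in 200 IU/mL IL-2 and taken on day 4. The sources used here do not give the age of the mice, whether WT cells carried Cre, which exons of Wtap were removed, or how many animals the libraries came from. The p-values therefore measure the spread between these libraries, which may be technical in part.

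An origin of replication is licensed in G1 phase, when ORC, Cdc6 and Cdt1 load the ring-shaped MCM2-7 helicase onto DNA, and geminin (Gmnn) blocks further loading once S phase has begun. Cdc45, GINS and Mcm10 then turn the ring into a moving helicase, primase starts each strand, and the clamp PCNA, loaded by replication factor C, holds the polymerases on DNA. Resting T cells express little of this machinery, and after stimulation through CD3 and CD28 they enter a run of rapid divisions in which E2F factors switch most of these genes on together.

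E2F factors bind DNA in a short pattern rich in C and G, and copies of it in the promoters illustrate what many of the listed genes have in common. RefSeq promoter windows (GRCm38.p6; 250 bases before and 50 bases after a transcript's start) were at hand for 37 of the 45 genes, in 44 windows. The letters TTTCCCGC or TTTCGCGC or TTTGCCGC or TTTGGCGC, on either strand, were present for 14 of these 37 genes (37.8%), against 2.61% of all 27025 symbols with a window and 4.403% of the 11128 symbols with a window that were tested. Among the 14 were 4 of the 6 helicase subunits and the loading factors Orc1, Cdc6 and Cdt1. For each of these genes 1 site is shown, as 30 bases on the strand of the gene, with the E2F letters in capitals. A site on the other strand reads as its reverse complement, such as GCGGGAAA.
Orc1 (chr4:108579416-108579445, plus strand): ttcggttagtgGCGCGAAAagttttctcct
Cdc6 (chr11:98908002-98908031, plus strand): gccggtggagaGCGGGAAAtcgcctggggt
Cdt1 (chr8:122568035-122568064, plus strand): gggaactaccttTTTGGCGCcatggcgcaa
Mcm3 (chr1:20820263-20820292, minus strand): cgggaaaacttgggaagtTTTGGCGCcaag
Mcm5 (chr8:75109347-75109376, plus strand): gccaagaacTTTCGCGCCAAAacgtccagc
Mcm6 (chr1:128359795-128359824, minus strand): gcgtatgctTTTGGCGCGAAAagtgcgtgc
Mcm7 (chr5:138172030-138172059, minus strand): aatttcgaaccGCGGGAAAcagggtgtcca

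In the sites shown for Mcm5 and Mcm6 2 matches overlapped, 1 on each strand, within 12 bases. The site of Mcm5 began 153 bases before the start and the one shown for Mcm6 110 bases before it, while those shown for Cdt1 and Mcm3 lay 32 and 38 bases after the start. Mcm6, Mcm3 and Mcm7 each held a further site, which began 47 bases before the start in Mcm6 and 19 and 16 bases after it in Mcm3 and Mcm7. The shorter core, the same 4 patterns without the first T, was present for 24 of the 37 genes (64.9%), 10.9% of all symbols and 18% of the tested symbols. It contains the longer site, so the counts overlap. CCAAT was found for 24 of 37 (64.9%) against 41.1% of all symbols and 42.8% of the tested ones. The cell cycle homology region, written as TTTGAA or TTCGAA, was found for 8 of 37 (21.6%) against 21.7% and 17.9%. These are matches of letters, and binding was not measured.

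Of the 3 genes that passed the test described below, Tk1 and Rpa1 had no copy of the longer or the shorter pattern. Fen1 had the shorter one only. The 14 genes with the longer site had a median log2 fold change (Wtap KO over WT) of 0.047, with a range of -0.36 to 0.25, and the 23 genes without it a median of -0.020. For the shorter core the median was 0.015 over the 24 genes with it and 0.019 over the 13 without.

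The libraries held 32363139 to 44039467 estimated counts. CPM denotes counts brought to a common library size with the TMM method and is used for a gene's level between libraries, while TPM, which also divides by transcript length, is used to set genes side by side. Total Wtap RNA was 114, 106 and 94.3 CPM in WT and 114, 119.6 and 119 CPM in Wtap KO (log2 fold change 0.16, adjusted p = 0.371 in edgeR's quasi-likelihood test), so the gene's total level does not check the deletion. Of 8 CD4 T cell markers, 2 (Cd3g and Cd4) were lower in Wtap KO, beside 3.49% of all genes tested. The 8 summed to 2094 to 2203 TPM in WT and 1870 to 1939 TPM in Wtap KO. The 2 CD8 T cell markers, Cd8a and Cd8b1, summed to 7.18 to 7.79 TPM in WT and 11.4 to 13.9 TPM in Wtap KO. Of these Cd8b1 was higher (1.63-fold, edgeR adjusted p = 0.0268), beside 5.75% of all genes tested, and Cd8a did not pass. Markers of B cells, NK cells, macrophages, dendritic cells, granulocytes, platelets and the erythroid lineage summed to at most 8.42 TPM in a library. None of those tested passed in edgeR's test, while DESeq2 called 1 of the 3 NK cell markers tested, as higher, beside 14.6% of all genes. The mean sum of each of these lists was higher in Wtap KO, such as 4.63 against 2.83 TPM for B cells and 2.32 against 0.991 TPM for NK cells. Library 3 of Wtap KO showed a male expression pattern, with 63.3 CPM of Kdm5d, a gene on the Y chromosome (2.43 to 3.53 CPM elsewhere). It held 3.81 CPM of Xist, where the other libraries held 1980 to 4448 CPM. The Wtap KO libraries therefore did not all come from 1 animal. WT library 1 stood apart for the replication genes themselves. The part of these differences in the results was not tested.

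In all 6 libraries the replication machinery was expressed, and for most of it no difference between the groups passed the test. Of the 45 genes, 2 rose in Wtap KO, 1 fell and 42 did not pass the test (edgeR's quasi-likelihood test, Benjamini-Hochberg adjustment over the 17610 genes, threshold 0.05). Thymidine kinase Tk1 and the flap endonuclease Fen1 were 2.02-fold and 1.96-fold as high, and Rpa1, the large subunit of the single-strand binding protein RPA, was at 0.76-fold. Over all genes tested, 9.23% passed, 5.75% as higher and 3.49% as lower, so the 6.67% of the listed genes that passed lay near the background. Their median log2 fold change was 0.0021, beside -0.00058 for all genes tested, and 23 of 45 lay above 0. At an unadjusted p under 0.05 there were 6 of the 45 (Tk1, Fen1, Rpa1, Rfc1, Rfc4 and Chaf1a), where 26.3% of all genes tested were. DESeq2 called 5 (Tk1, Fen1, Rpa1, Rfc1 and Rfc4), beside 14.6% of all genes. The libraries of both groups did not overlap in CPM for 8 of the 45, 4 higher in Wtap KO and 4 lower, where 32.7% of all genes did not overlap (17.2% higher, 15.5% lower). In bulk RNA, fewer cells in S phase and less RNA per cell cannot be told apart.

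**Figure D1:**
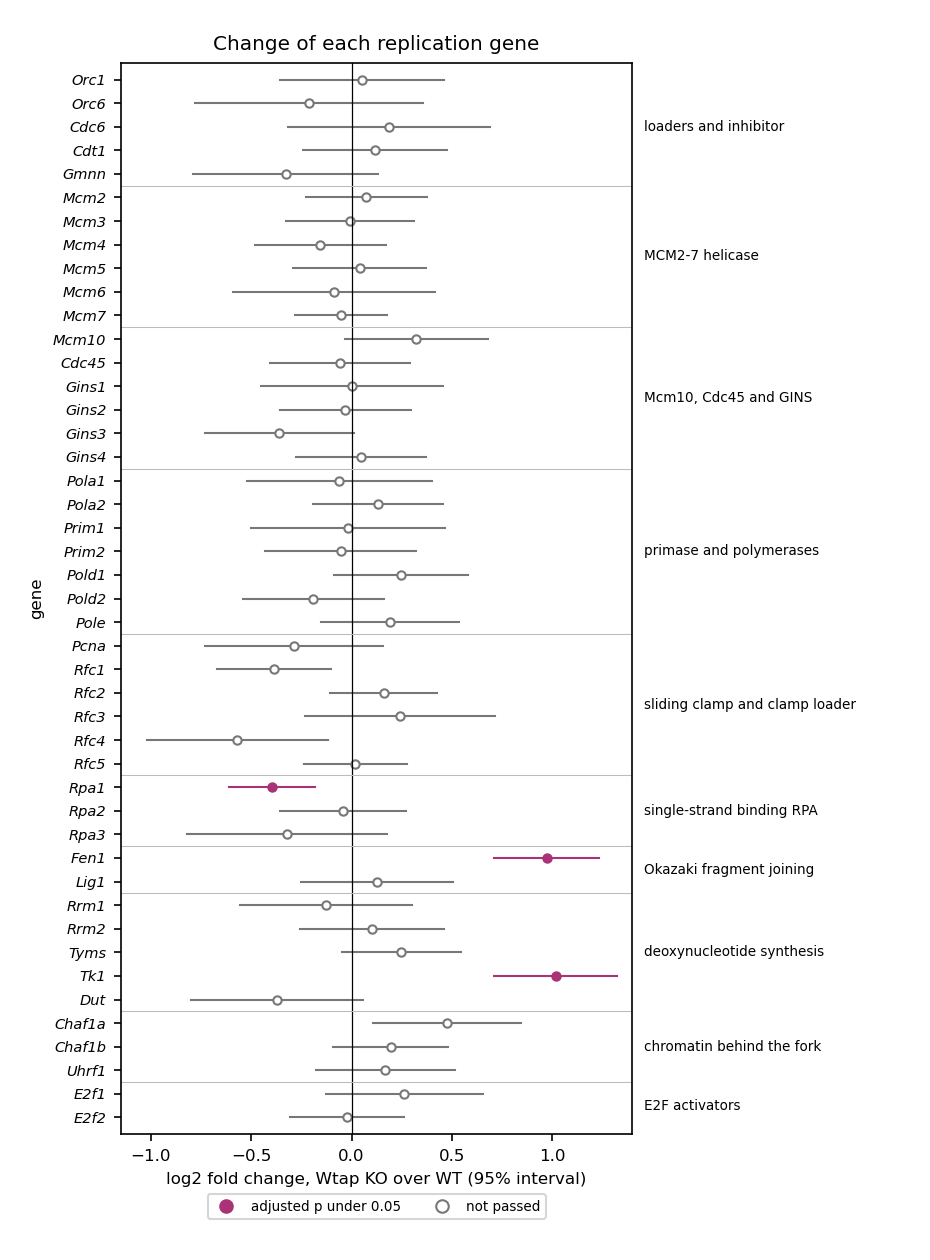
Log2 fold change of each of the 45 genes, Wtap KO over WT (x axis), with its 95% interval from edgeR's quasi-likelihood fit; genes are grouped by role. Filled points passed the test: Tk1 and Fen1 near 1 and Rpa1 near -0.40, while the intervals of the other 42 include 0, except those of Rfc1, Rfc4 and Chaf1a, and 28 of them stay within 1.5-fold on both sides.

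For 28 of the 42 genes that did not pass, the 95% interval of the fold change lay within 1.5-fold in both directions. For the other 14 the interval reached past 1.5-fold on at least 1 side. The genes were well covered, with 182 to 28310 counts per library, and the spread was wider in WT: the SD over WT libraries exceeded that over Wtap KO libraries for 43 of the 45 genes.

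WT library 1 held the highest level of all 6 libraries for 30 of the 45 genes (24.6% of all genes tested had their highest level there), and WT library 2 the lowest for 28 (12.1% of all genes). The summed level of the 45 genes was 2518, 1634 and 1749.9 TPM in WT and 1718, 1904 and 2114 TPM in Wtap KO. The Wtap KO libraries thus lay inside the range of the WT libraries. The CPM of WT library 1 over the mean of the other WT libraries had a median of 1.35 over the 45 genes and was above 1 for 43 of them, while its median over all genes tested was 0.996. This ratio was largest for Orc6 (1.86) and Mcm6 (1.78), and below 1 for Pola2 (0.841) and Rpa1 (0.935). Without WT library 1 the median log2 fold change of the 45 genes was 0.18, and 7 passed, 6 of them higher, where 12.5% of all genes tested passed. Those were Tk1, Fen1, Chaf1a, Mcm10, Pole and Rfc3, with Rpa1 lower. Leaving out any other library kept the median between -0.10 and 0.045 and left 2 genes past the threshold, Tk1 and Fen1. Over all genes tested, 565 of 18246 passed without WT library 2 and 1976 of 18323 without WT library 3. Without Wtap KO libraries 1, 2 and 3 in turn, 397 of 18148, 361 of 18132 and 704 of 18193 passed.

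**Figure D2:**
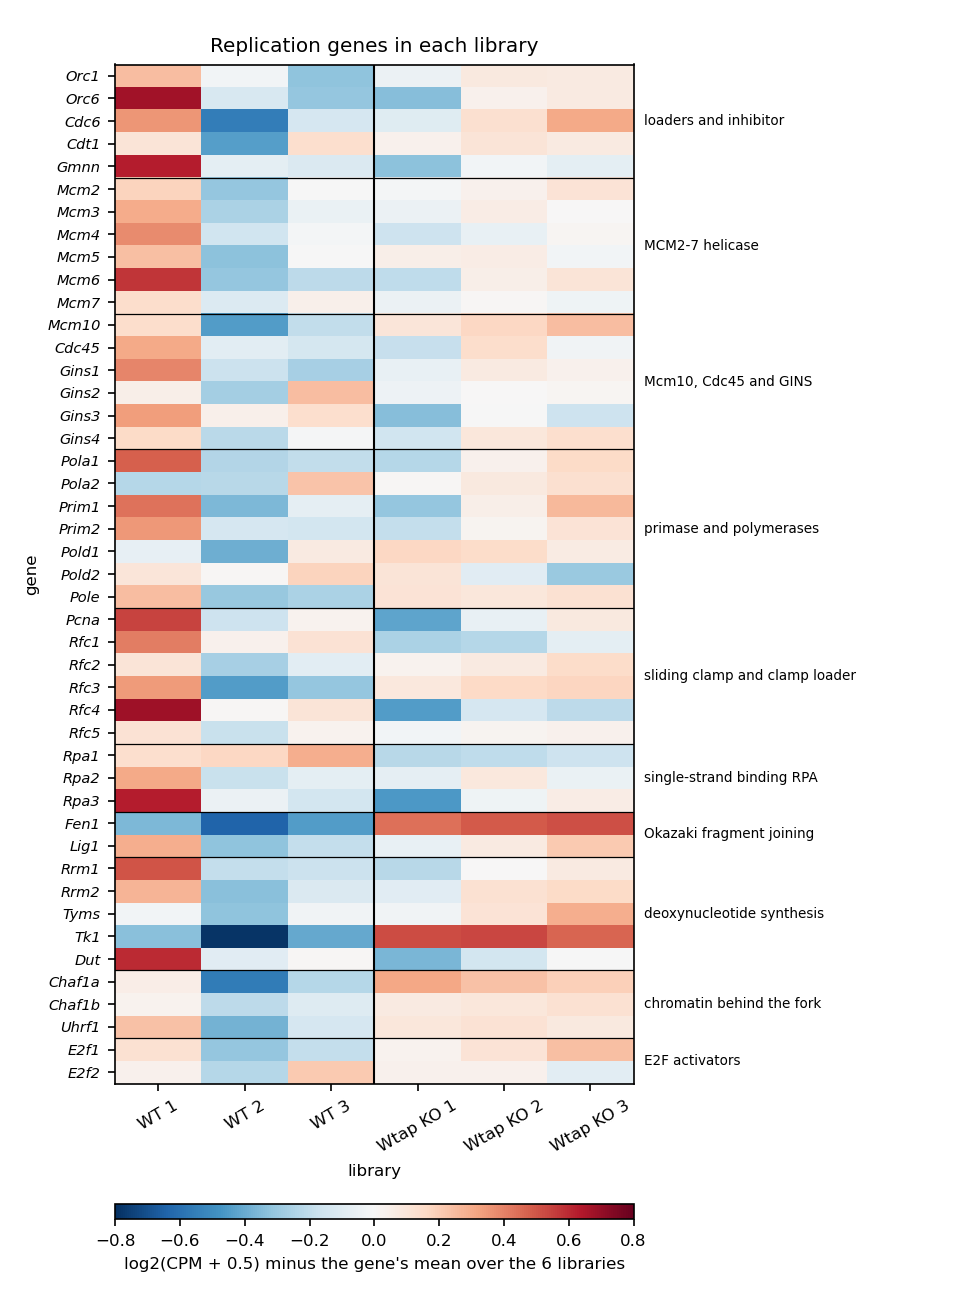
Each row is 1 of the 45 genes and each column a library; colour is log2(CPM + 0.5) minus the gene's mean over the 6 libraries, red for higher. WT library 1 is red for most genes, being the highest of 6 for 30 of them, WT library 2 is blue, being the lowest for 28, and the rows of Fen1 and Tk1 change colour at the line between the groups.

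The factors that load the helicase come first in the order of events. Orc1 and Orc6 are subunits of the origin recognition complex, Cdc6 and Cdt1 bring the MCM ring to it, and geminin holds Cdt1 back. None of these 5 passed the test, with log2 fold changes from -0.33 to 0.19. Geminin had both the highest level and the largest difference of the 5. Gmnn stood at 82.5, 50.2 and 48.9 CPM in WT and 42.2, 52.2 and 50.4 CPM in Wtap KO. WT library 1 was far above the rest, and the other WT libraries lay among those of Wtap KO. At a log2 fold change of -0.33 ± 0.203 (SE), geminin had an adjusted p of 0.352 (edgeR). By length, the mean over the 6 libraries ran from Gmnn at 75.6 TPM through Orc6 (33.4), Cdt1 (19.4) and Cdc6 (7.86) to Orc1 (3.59). The ranges of neighbours in this order did not overlap.

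The 6 subunits of the MCM2-7 helicase, which form 1 ring together, did not pass either, and their log2 fold changes lay between -0.16 and 0.074. Mcm6 had the highest level. Its libraries held 312, 169 and 181 CPM in WT and 182, 217 and 225 CPM in Wtap KO. WT library 1 was the highest, and the other WT libraries lay below all Wtap KO libraries, by a narrow margin for WT library 3. The log2 fold change of Mcm6 was -0.087 ± 0.221 (SE) (edgeR quasi-likelihood test, adjusted p = 0.851), and 0.24 (adjusted p = 0.200) without WT library 1. Mcm4 showed the largest difference of the 6, with 197, 136 and 150.1 CPM in WT and 135, 146 and 153 CPM in Wtap KO. Here too WT library 1 was highest and the groups overlapped, at a log2 fold change of -0.16 ± 0.144 (SE) (edgeR, adjusted p = 0.547). The mean TPM of the subunits was 76.3 for Mcm6, 53.6 for Mcm7, 53.3 for Mcm3, 43.5 for Mcm4, 21.96 for Mcm2 and 18.3 for Mcm5. Mcm7 and Mcm3, Mcm3 and Mcm4, and Mcm2 and Mcm5 overlapped in their ranges over libraries, while Mcm6 lay above Mcm7 and Mcm4 above Mcm2 in every library.

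Helicase activation was represented by Mcm10, Cdc45 and the 4 GINS subunits, none of which passed. Gins3 had the largest difference and did not overlap between groups, with 10.3, 8.35 and 8.94 CPM in WT and 6.29, 8.06 and 7.17 CPM in Wtap KO. In CPM every Wtap KO library was below every WT library, yet the log2 fold change of -0.36 ± 0.163 (SE) had an adjusted p of 0.2003 (edgeR). In TPM the groups of Gins3 overlapped, at 3.72 to 5.12 TPM in WT and 3.61 to 3.86 TPM in Wtap KO. Gins4, the most abundant of the 6 by length, held 25.1, 19.4 and 22.4 CPM in WT and 20.2, 24.04 and 24.8 CPM in Wtap KO. Its groups overlapped, with a log2 fold change of 0.045 ± 0.143 (SE) and an adjusted p of 0.884 in edgeR's test. Mcm10, which joins the helicase as it is activated, held 31.1, 20.6 and 24.6 CPM in WT and 30.2, 31.7 and 33.6 CPM in Wtap KO. WT library 1 lay among the Wtap KO libraries and the other WT libraries below them. The log2 fold change was 0.32 (edgeR, adjusted p = 0.231) with all libraries and 0.49 (adjusted p = 0.0300) without WT library 1. By level, neighbours from Gins4 (18.3 TPM) through Cdc45, Gins2 and Mcm10 to Gins1 (9.61 TPM) overlapped in range, and Gins3 (4.02 TPM) lay below them. Gins2 shares 67.3% of its exonic bases with Gse1 on the opposite strand, and the strand setting of the counting is unknown here, so its level is uncertain.

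None of the 7 genes of primase and the replicative polymerases passed. Their log2 fold changes lay between -0.19 and 0.25. Prim1, the catalytic subunit of primase, was the most abundant by length, at 96.9, 55.8 and 68.2 CPM in WT and 57.8, 74.1 and 85.9 CPM in Wtap KO. Both groups spanned about the same range, with a log2 fold change of -0.020 ± 0.213 (SE) (edgeR, adjusted p = 0.971). Pold1, the catalytic subunit of polymerase delta, had the largest difference, with 18.2, 14.4 and 20.1 CPM in WT and 21.4, 21.2 and 19.96 CPM in Wtap KO. WT library 3 lay just above the lowest Wtap KO library and the other WT libraries below. The test gave 0.25 ± 0.147 (SE) and an adjusted p of 0.3302 (edgeR). Pole, the catalytic subunit of polymerase epsilon, was 70.2, 47.8 and 49.5 CPM in WT and 63.8, 62.9 and 64.4 CPM in Wtap KO. Its Wtap KO libraries sat close together between WT library 1 and the other WT libraries. Pole passed only without WT library 1 (log2 fold change 0.39, edgeR adjusted p = 0.0300; 0.19 and 0.475 with it). Mean levels ran from Prim1 (45.7 TPM) through Pola2 (27.1), both apart from their neighbours, to Pole, Prim2, Pold1, Pold2 and Pola1 (14.6 to 6.999 TPM), where each overlapped the next.

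PCNA, the ring that tethers the polymerases, was by length the most abundant of the 45 genes, with a mean of 446 TPM. Pcna held 782, 479 and 548 CPM in WT and 400.3, 516 and 567 CPM in Wtap KO. WT library 1 was the highest and Wtap KO library 1 the lowest, and the remaining 4 were mixed. Its log2 fold change of -0.29 ± 0.196 (SE) did not pass (edgeR, adjusted p = 0.4003), and without WT library 1 it was -0.056. The annotated pseudogenes Pcna-ps1 and Pcna-ps2 held at most 0.0787 CPM in a library.

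The clamp loader, replication factor C, has the large subunit Rfc1 and the small subunits Rfc2 to Rfc5. Of these, Rfc4 and Rfc1 did not overlap between groups and were lower in Wtap KO. Rfc4 held 25.7, 15.9 and 17.01 CPM in WT and 11.5, 14.4 and 13.6 CPM in Wtap KO. WT library 1 again exceeded the others of its group. With a log2 fold change of -0.57 ± 0.199 (SE), the lowest among the 45, its adjusted p was 0.111 in edgeR's test and 0.0492 in DESeq2's. Rfc4 shares 12.7% of its exonic bases with Eif4a2 on the opposite strand, which held 316 to 440 CPM over the libraries. As the strand setting is unknown, the level of Rfc4 is uncertain. Rfc1 was at 88.96, 68.6 and 72.6 CPM in WT and 55.9, 56.9 and 63.2 CPM in Wtap KO. The groups were separate but the gap between them was narrow. For Rfc1 a log2 fold change of -0.39 ± 0.125 (SE) came with an adjusted p of 0.0885 in edgeR and 0.0448 in DESeq2. Rfc3 lay on the other side of 0, with 18.9, 10.7 and 11.9 CPM in WT and 15.7, 16.6 and 16.7 CPM in Wtap KO. All but WT library 1 were ordered by group. It passed without WT library 1 (log2 fold change 0.53, edgeR adjusted p = 0.0301) and not with it (0.24, adjusted p = 0.513). Subunits of 1 complex thus had log2 fold changes from -0.57 to 0.24, a difference between subunits that was not tested. By length Rfc2 (82.7 TPM) lay above the other subunits, and Rfc5 (26.4), Rfc1 (22.6), Rfc4 (14.9) and Rfc3 (12.3) each overlapped the next. Of the Rfc2 counts, 84.4% to 89.3% over the libraries were on transcripts not annotated as protein coding. The place of Rfc2 therefore need not hold for coding transcripts. Rfc2 also shares 15.1% of its exonic bases with Lat2 on the opposite strand.

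RPA coats the single strands that the helicase exposes. Its large subunit Rpa1 (chr11:75298166-75348324, minus strand, GRCm38) fell in Wtap KO. Rpa1 held 119.9, 123 and 133 CPM in WT and 93.4, 95.01 and 97.5 CPM in Wtap KO. Both groups were tight and did not overlap, and WT library 1 was the lowest of its group. Levels were 125 ± 7.14 CPM (SD, n = 3) in WT and 95.3 ± 2.05 CPM (SD, n = 3) in Wtap KO, or 0.76-fold (95% interval 0.66 to 0.88), with a log2 fold change of -0.40 ± 0.0941 (SE) and an adjusted p of 0.0351 in edgeR's test. The call held in 8 of 18 alternative settings. It was lost when any library but WT library 1 was left out (edgeR, adjusted p = 0.0586 to 0.162), and on the TPM scale (limma, adjusted p = 0.144 and 0.145). The main coding transcript, Rpa1-201, was at 34.5, 35.6 and 39.3 TPM in WT and 28.9, 26.8 and 28.9 TPM in Wtap KO.

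The small subunits of RPA did not pass. Rpa3, the most abundant by length at 108 TPM, held 88.8, 55.5 and 51.7 CPM in WT and 41.5, 55.8 and 59.7 CPM in Wtap KO. WT library 1 stood alone at the top and the rest were mixed. The log2 fold change was -0.32 ± 0.2198 (SE) (edgeR, adjusted p = 0.402) and -0.037 without WT library 1. Over the libraries the ranges put Rpa2 (57.8 to 89.1 TPM) above Rpa1 (37.4 to 50.8 TPM), while Rpa3 and Rpa2 overlapped. Transcripts not annotated as protein coding held 26.6% to 38.9% of the Rpa2 counts and 8.45% to 15.2% of the Rpa1 counts. This order therefore need not hold for coding transcripts.

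Okazaki fragments, the short pieces of the lagging strand, are trimmed by the flap endonuclease Fen1 and sealed by DNA ligase 1 (Lig1). Fen1 (chr19:10199132-10204169, minus strand, GRCm38) rose in Wtap KO. Its level was 24.8, 20.3 and 23.3 CPM in WT and 43.5, 45.01 and 45.8 CPM in Wtap KO. Every Wtap KO library was well above every WT library, and libraries within a group differed little. Fen1 averaged 22.8 ± 2.28 CPM (SD, n = 3) in WT and 44.8 ± 1.15 CPM (SD, n = 3) in Wtap KO, 1.96-fold (95% interval 1.64 to 2.35), with a log2 fold change of 0.97 ± 0.115 (SE) and an adjusted p of 0.00289 in edgeR's test. It passed under all 18 alternative settings, with log2 fold changes of 0.89 to 1.04 and an adjusted p of at most 0.0226 (edgeR, DESeq2 or limma).

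The 3 Fen1 transcripts with reads were each higher in every Wtap KO library than in any WT library. The most abundant, Fen1-202, held 5.69, 5.16 and 4.56 TPM in WT and 9.87, 11.6 and 11.7 TPM in Wtap KO. Fen1-201 held 3.504, 2.85 and 3.62 TPM in WT and 7.23, 6.52 and 6.08 TPM in Wtap KO. Fen1-204 was listed at 0 in every library. Transcript values of 1 gene rest on how kallisto splits shared reads and were not tested. The antisense gene Gm10143 covers 78.8% of the exonic bases of Fen1, at 0.763 to 1.49 CPM in a library (log2 fold change -0.10, edgeR adjusted p = 0.896), and Tmem258, on the opposite strand, shares 5.37% of them. Lig1, which acts after Fen1, held 64.6, 42.1 and 46.02 CPM in WT and 50.6, 55.3 and 61.1 CPM in Wtap KO. Its groups overlapped through WT library 1, with a log2 fold change of 0.13 ± 0.167 (SE) (edgeR, adjusted p = 0.684). By length, Lig1 (26.1 to 43.2 TPM over the libraries) was above Fen1 (9.69 to 22.9 TPM).

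**Figure D3:**
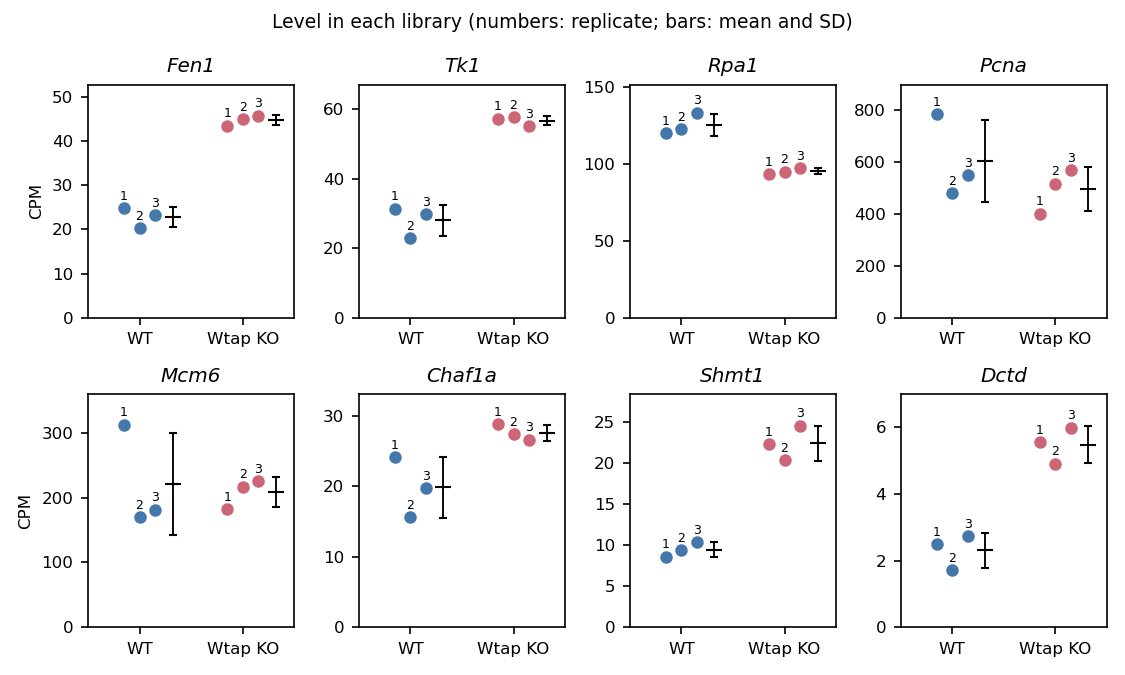
CPM of 8 genes in each library (y axis, from 0), WT in blue and Wtap KO in red, with the replicate number beside each point and the mean and SD as bars; Shmt1 and Dctd are related genes outside the 45. Fen1, Tk1, Shmt1 and Dctd are higher in all Wtap KO libraries, Rpa1 lower, and in Pcna and Mcm6 WT library 1 lies above all others.

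The enzymes of deoxynucleotide synthesis divide into the ribonucleotide reductase subunits Rrm1 and Rrm2, and the enzymes of the thymidylate route: thymidylate synthase (Tyms), thymidine kinase (Tk1) and dUTPase (Dut), which supplies dUMP and keeps uracil out of DNA. Tk1 (chr11:117815526-117826092, minus strand, GRCm38), the cytosolic kinase that salvages thymidine in S phase, rose. Tk1 was 31.4, 22.9 and 29.9 CPM in WT and 57.4, 57.9 and 55.2 CPM in Wtap KO. The Wtap KO libraries were nearly equal, and all lay far above the WT libraries, of which WT library 2 was lowest. Means were 28.1 ± 4.55 CPM (SD, n = 3) in WT and 56.8 ± 1.42 CPM (SD, n = 3) in Wtap KO, 2.02-fold (95% interval 1.64 to 2.50), with a log2 fold change of 1.02 ± 0.135 (SE) and an adjusted p of 0.00443 in edgeR's test. As for Fen1, the call held under all 18 alternative settings, with log2 fold changes of 0.88 to 1.10 and an adjusted p of at most 0.0295 (edgeR, DESeq2 or limma).

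The coding transcript Tk1-201 carried most of the TPM of the gene, with 18.4, 12.7 and 16.4 TPM in WT and 35.3, 34.8 and 32.3 TPM in Wtap KO. The retained intron transcript Tk1-203 was also higher in every Wtap KO library, at 3.58, 2.69 and 3.48 TPM in WT and 8.11, 6.52 and 11.6 TPM in Wtap KO. Transcripts not annotated as protein coding held 22.4% to 25.6% of the Tk1 counts in WT and 18.7% to 25.3% in Wtap KO. These shares overlapped and did not pass (limma, adjusted p = 0.732). Afmid, on the opposite strand, shares 1.597% of the exonic bases of Tk1.

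The other 4 enzymes did not pass. Rrm2, the regulated subunit of the reductase, had the highest level of the 5, with 306, 201 and 233 CPM in WT and 237, 275 and 282 CPM in Wtap KO. The groups overlapped through WT library 1, at a log2 fold change of 0.10 ± 0.157 (SE) (edgeR, adjusted p = 0.741). Log2 fold changes of Rrm1, Tyms and Dut lay between -0.37 and 0.25. In mean TPM, Rrm2 (194) lay above Dut (60.9) in every library, while Dut, Rrm1 (58.7), Tk1 (37.04) and Tyms (34.95) each overlapped the next.

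Behind the fork, the subunits Chaf1a and Chaf1b of chromatin assembly factor 1 place histones on new DNA, and Uhrf1 recruits the maintenance DNA methyltransferase to it. None of the 3 passed with all libraries, and all had log2 fold changes above 0. Chaf1a held 24.1, 15.6 and 19.7 CPM in WT and 28.8, 27.3 and 26.6 CPM in Wtap KO. Every Wtap KO library was above every WT library, with WT library 1 the nearest. The log2 fold change was 0.48 ± 0.162 (SE) (edgeR, adjusted p = 0.103), and without WT library 1 it was 0.64 and passed (edgeR, adjusted p = 0.0147). Chaf1a shares 52.5% of its exonic bases with Ubxn6 on the opposite strand, which makes its level uncertain. Uhrf1, the most abundant of the 3 by length, held 58.5, 38.1 and 45.2 CPM in WT and 52.9, 53.96 and 52.5 CPM in Wtap KO. The Wtap KO libraries lay together between WT library 1 and the other WT libraries, with a log2 fold change of 0.17 ± 0.153 (SE) (edgeR, adjusted p = 0.537). Chaf1b also did not overlap between groups, its Wtap KO libraries being the higher, without passing. In mean TPM, Uhrf1 (15.7) overlapped Chaf1b (9.704), and both lay above Chaf1a (4.27).

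E2f1 and E2f2 are the listed transcription factors that activate S phase genes. E2f2 was the more abundant, with 32.1 to 44.9 TPM over the libraries against 2.13 to 3.37 TPM for E2f1. Both genes together summed to 34.2 to 47.8 TPM, of which 18.1 to 23.4 TPM was on protein-coding transcripts. The size of the gap therefore need not hold for coding transcripts. E2f1 held 7.84, 5.69 and 6.22 CPM in WT and 7.34, 7.77 and 8.59 CPM in Wtap KO. The groups overlapped through WT library 1, and the log2 fold change of 0.26 ± 0.173 (SE) did not pass (edgeR, adjusted p = 0.381). E2f2 held 96.4, 80.2 and 109 CPM in WT and 96.2, 96.2 and 88.5 CPM in Wtap KO. Here the WT libraries spanned the Wtap KO libraries, at a log2 fold change of -0.023 ± 0.126 (SE) (edgeR, adjusted p = 0.937).

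Transcripts not annotated as protein coding, such as retained introns, are called noncoding here, and some may hold a reading frame. Their share of counts is a second readout of the same genes, which the genes' total level does not fix. It was tested with limma on the log2 ratio of noncoding to coding counts in 7137 genes, of which 22 passed (0.308%). Of the 45 genes, 37 could be tested and 0 passed, with 2 at an unadjusted p under 0.05 (11.2% of all 7137 genes) and a smallest adjusted p of 0.442 (limma). Of the others, 5 lacked either coding or noncoding transcripts and 3 were below the count minimum. Most counts of Rfc2 (84.4% to 89.3% over the libraries) and Gins2 (62.4% to 83.1%) were on noncoding transcripts. For Pcna the shares were 17.97% to 21.97% in WT and 17.4% to 18.6% in Wtap KO, and for Mcm6 they were at most 0.278%.

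The differences of the 45 genes went with their base composition, whose part in them was not tested. Across these genes the Spearman correlation of the log2 fold change with GC content was 0.52, and over all 17610 genes tested it was 0.20. The genes share their libraries and their depth and are not independent replicates. Tk1, Fen1 and Chaf1a have transcripts rich in G and C, at 55.8%, 53.3% and 55.1%. Rpa3 (40.2%), Pcna (42.7%) and Rfc4 (44.6%) lie toward the other end, with negative values that did not pass. Pola1 (41.6%, -0.062) and Prim1 (44.4%, -0.020), also low in G and C, lay near 0. Of the 14 genes with more G and C than Fen1, 4 had log2 fold changes below 0, among them Pold2 (57.9%, -0.19) and Dut (53.6%, -0.37). With each library's trend of counts on GC content removed, the correlation was 0.17 over the 45 genes and -0.0015 over all genes. Such a fit brings the correlation over all genes near 0 by construction. Tk1, Fen1 and Rpa1 still passed, with log2 fold changes of 0.88, 0.89 and -0.43 (edgeR). Of genes that did not pass, Chaf1a, Pold1 and E2f1 moved toward 0, to 0.35, 0.028 and 0.080. Rpa3, Pcna and Rfc4 also moved toward 0, to -0.22, -0.19 and -0.50. Some moved away from 0, such as E2f2, from -0.023 to -0.16. With gene length the correlation was 0.19 over the 45 genes and 0.068 over all genes.

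**Figure D4:**
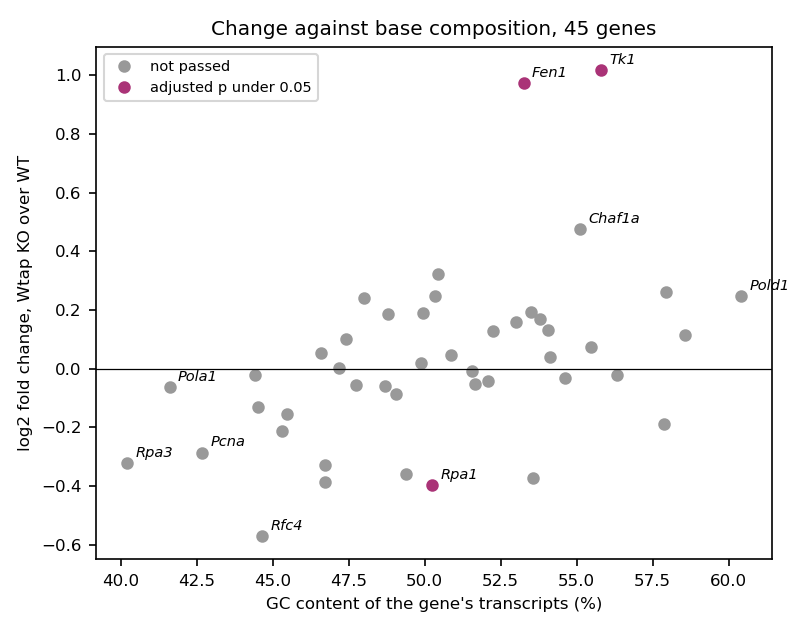
Each point is 1 of the 45 genes, with the GC content of its transcripts in percent (x axis) and its log2 fold change, Wtap KO over WT (y axis); those that passed edgeR's test are coloured. Rpa3, Pcna and Rfc4, low in GC content, lie below 0, while Pola1, also low, lies near 0. Tk1, Fen1 and Chaf1a lie highest, while other genes as rich in G and C, such as Pold2 and Dut, lie below 0. The Spearman correlation was 0.52 over the 45 genes.

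Other genes of replication were read from 6 further lists with 86 symbols (87 gene identifiers, all tested), of which 4 rose and 3 fell (8.05%), near the 9.23% of all genes. Of these 7, 6 belonged to the list of pyrimidine, thymidylate and deoxynucleotide supply, where 6 of 17 genes passed. Shmt1, the cytosolic serine hydroxymethyltransferase that feeds folate units to thymidylate synthesis, rose. It held 8.59, 9.41 and 10.4 CPM in WT and 22.3, 20.3 and 24.5 CPM in Wtap KO. The groups were far apart, with a log2 fold change of 1.24 ± 0.1400 (SE) and an adjusted p of 0.00229 (edgeR), and the call held under all 18 alternatives. Dctd, the dCMP deaminase that makes dUMP, also rose, from 2.49, 1.72 and 2.73 CPM in WT to 5.53, 4.89 and 5.97 CPM in Wtap KO. All Wtap KO libraries were higher, at a log2 fold change of 1.24 ± 0.218 (SE) (edgeR, adjusted p = 0.0128), and the call held in 15 of 17 alternatives.

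Umps and Cad, enzymes that make pyrimidines from small precursors, rose with log2 fold changes of 0.68 and 0.54 (edgeR, adjusted p = 0.0258 and 0.0491). In the same list deoxycytidine kinase (Dck) and the UMP-CMP kinase Cmpk1 fell, with log2 fold changes of -0.51 and -0.47 (edgeR, adjusted p = 0.0462 and 0.0429). The remaining call was Impdh1 of guanine nucleotide synthesis, the single gene of 13 on the purine list that passed, which fell (-0.62, edgeR adjusted p = 0.0416). Umps passed in 14 of 18 alternatives and Cad, Dck, Cmpk1 and Impdh1 in 9 of 18 each. With Wtap KO library 1 left out, 1 gene of the pyrimidine list passed, and the same number with Wtap KO library 3 left out. No gene passed in the lists of further origin and helicase factors (16 genes), polymerase and end-processing subunits (17), E2F, Rb and S phase cyclins (16) and histone supply (8) in edgeR's test. At an unadjusted p under 0.05 these lists held 1, 2, 4 and 1 genes (26.3% of all genes), and DESeq2 called 1, 0, 2 and 1 (14.6% of all genes).

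Genes of mitosis, set beside the S phase genes, had a median log2 fold change of -0.29 over 24 genes, of which 3 passed as lower, Ccnb2 (-0.53), Ube2c (-0.52) and Cdc20 (-0.46), with adjusted p of 0.0159, 0.0214 and 0.0364 in edgeR's test. Ccnb2 and Ube2c passed in 14 of 18 alternatives and Cdc20 in 10. The summed level of the 24 genes was 2646, 2051 and 2088 TPM in WT and 1910.1, 1949 and 1969 TPM in Wtap KO. WT library 1 was the highest of 6 for 20 of these 24 genes, as for most of the replication genes. In the summed level the Wtap KO libraries lay below all WT libraries. Gene by gene, 8 of the 24 did not overlap as lower in Wtap KO and 1 as higher, beside 15.5% and 17.2% of all genes tested. The 1 higher was Mki67, which did not pass (log2 fold change 0.37, edgeR adjusted p = 0.0689). The 3 genes that passed are 12.5% of the list, beside 9.23% of all genes tested. DESeq2 called 5 as lower and 1 as higher, beside 14.6% of all genes. The difference between both lists was not tested.

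**Figure D5:**
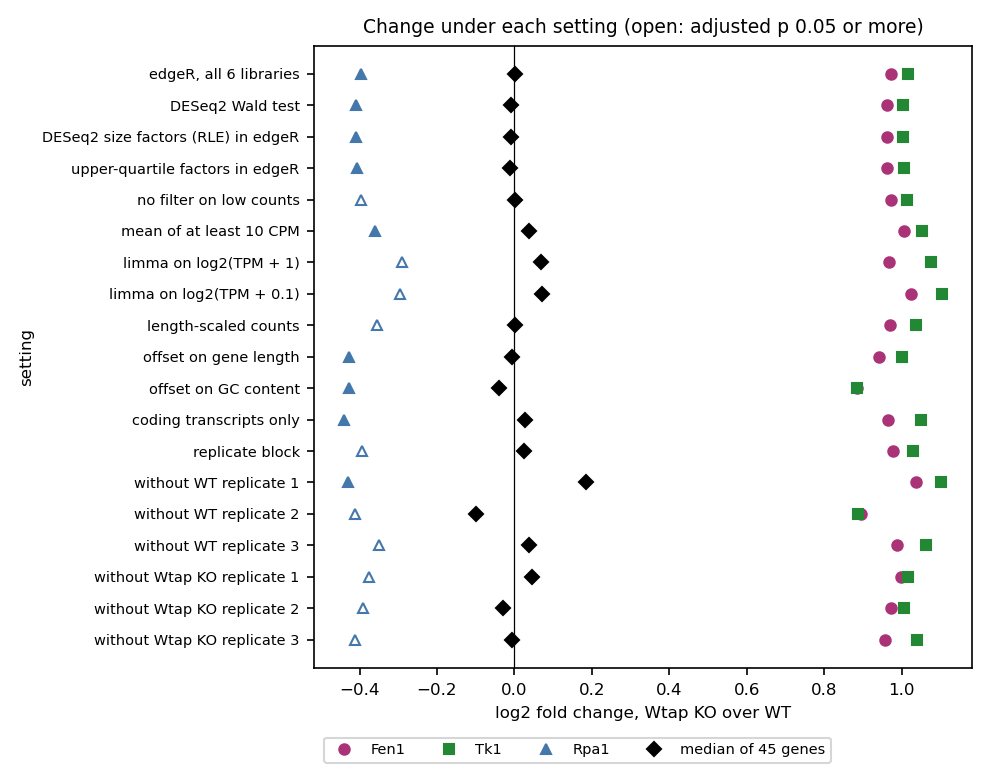
Log2 fold change, Wtap KO over WT (x axis), of Fen1, Tk1 and Rpa1 and the median of the 45 genes under each way of processing the data (rows); open symbols did not reach an adjusted p under 0.05. Fen1 and Tk1 stay between 0.88 and 1.10 and filled, Rpa1 stays between -0.44 and -0.29 and is often open, and the median moves most without WT replicate 1, to 0.18.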

How the data were processed

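For every library the authors deposited estimated counts and TPM of 142647 transcripts, made with kallisto 0.44.0 on GRCm38, per the submitters' processing notes. kallisto splits reads shared between transcripts, so these deposited values can be fractions. Length columns served only to rebuild length-scaled counts. The sources used here do not give the strand setting or the index's annotation.

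Transcripts were matched to GENCODE M21 (99.15%, holding 99.7% of counts; the 1218 unmatched were left out), and counts were summed per gene and rounded. edgeR 4.0.16 (R 4.3.3; filterByExpr, TMM, quasi-likelihood, genotype only) tested 17610 genes at an adjusted p of 0.05. limma 3.58.1 (pseudocount 1) tested noncoding shares in genes with at least 50 counts in every library and 10 noncoding counts in 3 libraries. Intervals are at 95%. DESeq2 1.42.0 and the other alternatives are in the closing section. The tests were also run on simulated data, in which no library stood apart as WT library 1 does here. No result here rests on those runs. Members and lists were chosen with earlier results of these data known. The members named with full values are those that passed and, in each role group, the one with the largest change and the one with the highest TPM. Mcm10, Pole, Rfc1 and Rfc3 were added after their values were seen, because an alternative called them.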

Additional observations from a re-analysis of the deposited data

How the results depend on the processing

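Fen1, Tk1 and the direction of Rpa1 held under all 18 alternatives. Leaving out 1 library at a time gave 361 to 2282 genes called (1626 with all), 2 to 7 of the 45 members (3 with all), 1 to 11 of the wider genes (7 with all), a median of members from -0.099 to 0.18, and 0 to 12 genes with a called noncoding share (22 with all). In the same fits Mcm4 (-0.27 to 0.014), Mcm6 (-0.25 to 0.24), Prim1 (-0.19 to 0.23), Gins4 (-0.048 to 0.14), Rrm2 (-0.029 to 0.28) and E2f2 (-0.13 to 0.083) turned sign in log2 fold change without passing. DESeq2's Wald test called 2576 genes (14.6%), 5 members (adding Rfc1 and Rfc4) and 14 wider genes, and no filter 11 wider genes. A mean of at least 10 CPM left 1064 genes called, with Prim1 at 0.0096 and E2f2 at 0.014. limma on log2(TPM + 1) and on log2(TPM + 0.1) called 4 wider genes each, with 73.8% and 73.3% of all calls higher (62.2% in the edgeR test on counts), Mcm6 at 0.015 and 0.016 and Prim1 at 0.031 and 0.032. The GC offset put Prim1 at 0.049. For noncoding shares, TPM gave 7 genes and retained introns alone 5. The cause was not tested. Of 805 member values under the alternatives, 70 changed sign, in 22 genes, and none in Fen1, Tk1 or Rpa1. With 3 libraries a group, the spread between WT libraries limits which differences could be detected.

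The replicate numbers gave no sign of pairing: same-numbered deviations correlated at -0.103, 0.0502 and 0.1403, and other pairs at -0.198 to 0.154. Deviations within a group of 3 libraries sum to 0, so a pairing could be missed. With a replicate block, 1061 genes, 2 members (Fen1 and Tk1; Rpa1 at an adjusted p of 0.0912, edgeR), 3 wider genes and 0 noncoding shares were called, and Prim1 was at 0.0027. For noncoding shares that is limma, with 648 of 7137 genes at an unadjusted p under 0.05.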
